A study of Mus musculus with 13 samples.

Results

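The complement genes C1qa, C1qb, C1qc, C4b and C3, were followed across the cell types of the ageing mouse hippocampus. They were found by their gene symbols and are 5 of the 32285 genes in the count tables. The data are single-nucleus RNA counts from the whole frozen hippocampus of female C3B6F1 hybrid mice (also spelled C3HB6F1 in the labels), with nuclei sorted by their Hoechst DNA stain and captured in droplets. Each count is a unique molecular identifier (UMI), 1 captured RNA molecule, and levels are given as CPM, the member's UMIs scaled to a common total of the UMIs of a class of nuclei in 1 library. The 13 libraries form 4 groups. Young controls were fed ad libitum (AL) and taken at 5 months (n = 3), and old controls were fed AL and taken at 24 months (n = 3). The acutely restricted mice were put on dietary restriction (DR) at 20 months and taken at 24 months (n = 3). The long-term restricted mice were on DR from 5 months to 24 months (n = 4). The degree of restriction is not given in the sources used here. The libraries are taken as 1 mouse each. The labels do not say whether animals were pooled, so that p-values measure the spread between these libraries.

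Complement is a cascade of secreted proteins that tags surfaces for removal. In its classical arm C1q, a bundle of chains encoded by C1qa, C1qb and C1qc, recognises a target and activates the proteases C1r and C1s. These cleave C4, encoded in the mouse by C4b, and C2 to form the enzyme that cleaves C3, the component on which all arms converge. In the brain C1q is made mainly by microglia, C4 and C3 are known from reactive glia, and the cascade is known for marking synapses that microglia engulf through the receptor CR3.

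On the mm10 assembly (GRCm38) the 3 C1q genes lie side by side on the minus strand of chromosome 4, C1qb at chr4:136880129-136886187, C1qc at chr4:136889804-136893065 and C1qa at chr4:136895917-136898803. C4b (chr17:34728380-34743882) and C3 (chr17:57203970-57228136) are on the minus strand of chromosome 17. The C3 span also holds the microRNA gene Mir6978 on the same strand. Sequence upstream of the start was matched by symbol in the RefSeq table (GRCm38.p6) for 3 of the 5 members and is shown because the C1q genes share a cell type, with C3 beside them. Each is written 5′ to 3′ on the minus strand, and capitals mark a motif match. Each ends at or before the GENCODE start of the gene, and the one of C1qc is cut short there. The stretches are chr4:136886201-136886450 for C1qb, chr4:136893066-136893164 for C1qc and chr17:57228137-57228386 for C3.
C1qb: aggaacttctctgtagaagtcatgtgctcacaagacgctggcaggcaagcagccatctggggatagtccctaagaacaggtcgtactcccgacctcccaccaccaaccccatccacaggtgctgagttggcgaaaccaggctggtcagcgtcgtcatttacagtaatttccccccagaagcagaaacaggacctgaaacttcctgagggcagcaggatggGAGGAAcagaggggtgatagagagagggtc
C1qc: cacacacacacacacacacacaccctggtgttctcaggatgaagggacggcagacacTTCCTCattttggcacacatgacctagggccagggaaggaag
C3: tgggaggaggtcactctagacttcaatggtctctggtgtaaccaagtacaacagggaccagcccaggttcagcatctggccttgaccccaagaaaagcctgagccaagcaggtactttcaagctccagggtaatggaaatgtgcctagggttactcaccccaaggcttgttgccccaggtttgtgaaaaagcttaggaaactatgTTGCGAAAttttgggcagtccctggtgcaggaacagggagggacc
These 3 motifs were searched on both strands, GAGGAA (the core bound by ETS factors such as the macrophage regulator PU.1), TTGCGNAA (a C/EBP-type site) and TATAAA (the TATA box). No 2 matches overlapped. GAGGAA was found 37 bases before the GENCODE start of C1qb, and on the other strand, read as TTCCTC, 36 bases before that of C1qc. TTGCGNAA was found in C3, 37 bases before its start, as TTGCGAAA. TATAAA had no match in any of these 3 stretches. Of 32851 windows of 250 bases in the table, 23.3% held GAGGAA, 0.670% held TTGCGNAA and 12.4% held TATAAA. In their first 99 bases, the length available for C1qc, the shares were 9.91%, 0.222% and 5.20%. These bases lie farthest upstream of the RefSeq start, while the C1qc stretch ends at its GENCODE start.

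C4b has a near-identical neighbour, C4a (chr17:34809092-34823464), which encodes the sex-limited protein. Of the 5330 stretches of 50 bases in the C4b transcript, 1875 (35.2%) also occur in C4a, and of the 451 in its last 500 bases 172 (38.1%) do. The last 120 coding bases, positions 5154 to 5273 of the C4b transcript, are shown because droplet libraries read the 3′ end of a transcript. The capital marks the only difference, A27G, counted from 1 at the 5′ end with the C4b base first.
C4b: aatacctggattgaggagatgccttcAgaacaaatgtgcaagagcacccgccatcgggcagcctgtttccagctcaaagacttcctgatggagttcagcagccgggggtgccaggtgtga
C4a: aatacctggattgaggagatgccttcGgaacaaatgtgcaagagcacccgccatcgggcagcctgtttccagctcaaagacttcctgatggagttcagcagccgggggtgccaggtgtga
Reads that lie wholly in shared stretches cannot be assigned to 1 of the 2 genes, so C4b counts can be incomplete. The C4a counts are given for the classes with most C4b.

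The libraries held 38546292 to 80538090 UMIs and 3524 to 12368 barcodes. After removal of 7386 predicted doublets, 98041 nuclei remained, of which 75751 fell in clusters named from marker genes, giving 14 classes, each called "-like". Complement genes were left out of the clustering. Between 4 and 40 barcode sequences were shared by each pair of libraries. The libraries numbered 1 in their titles stood apart in every group: over whole libraries their deviations from the group means correlated in 6 of 6 pairs (Pearson r 0.34 to 0.80). What that number marks is not given in the sources used here, and changes of the members with age are also given without those 4 libraries.

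The 3 C1q genes were found mainly in the 2 macrophage classes. In the microglia-like class of 1647 nuclei, C1qa had 585 UMIs and was detected in 28.0% of nuclei (exact binomial 95% interval 25.8 to 30.2, counting error only), at 304 ± 186 CPM (SD, n = 13). C1qb had 514 UMIs there and was detected in 26.2% of nuclei, at 256 ± 135 CPM (SD, n = 13). C1qc had 457 UMIs and was detected in 22.5%, at 248 ± 206 CPM (SD, n = 13). The border-associated macrophage-like class, a small set of 127 nuclei named for macrophages of the brain's linings, had higher shares when the groups were pooled. There C1qa was detected in 47.2% of nuclei, C1qb in 46.5% and C1qc in 42.5%, with pooled levels of 585, 457 and 419 CPM. By group the macrophage-like shares ranged from 31.3% to 57.7% for C1qa, from 24.4% to 72.2% for C1qb and from 31.7% to 61.1% for C1qc, over 16 to 52 nuclei. In the 41 nuclei of acutely restricted mice the C1qb share, 24.4%, was not above those of the microglia-like subclusters of that group (26.8% and 29.1%). After thinning each nucleus to 1000 UMIs, C1qa was detected in 37.0% of macrophage-like and 19.5% of microglia-like nuclei. Dentate granule neuron-like nuclei, which should lack C1q, had C1qa in 0.458% of nuclei before thinning and 0.0961% after. Other classes with 30 or more C1qa UMIs were likewise below 1%. Per 1000 UMIs of microglia markers, the groups had 46.0 to 65.3 C1q UMIs in microglia-like, 17.0 to 28.8 in granule-like, 53.2 to 104 in astrocyte-like and 74.5 to 128 in oligodendrocyte-like nuclei. The part of free RNA in these low counts was not tested.

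Microglia-like nuclei were 1.68% of nuclei and held 44.5% of C1qa UMIs, and macrophage-like nuclei were 0.130% and held 9.35%. Detection of the subunits was sparse: 43.4% of microglia-like nuclei had a UMI of none of the 3 genes, 39.0% of 1 gene, 15.2% of 2 and 2.43% of all 3. Of the C1q UMIs of microglia-like nuclei, 37.6% were C1qa, 33.0% C1qb and 29.4% C1qc, counts that are not corrected for transcript length.

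**Figure D1:**
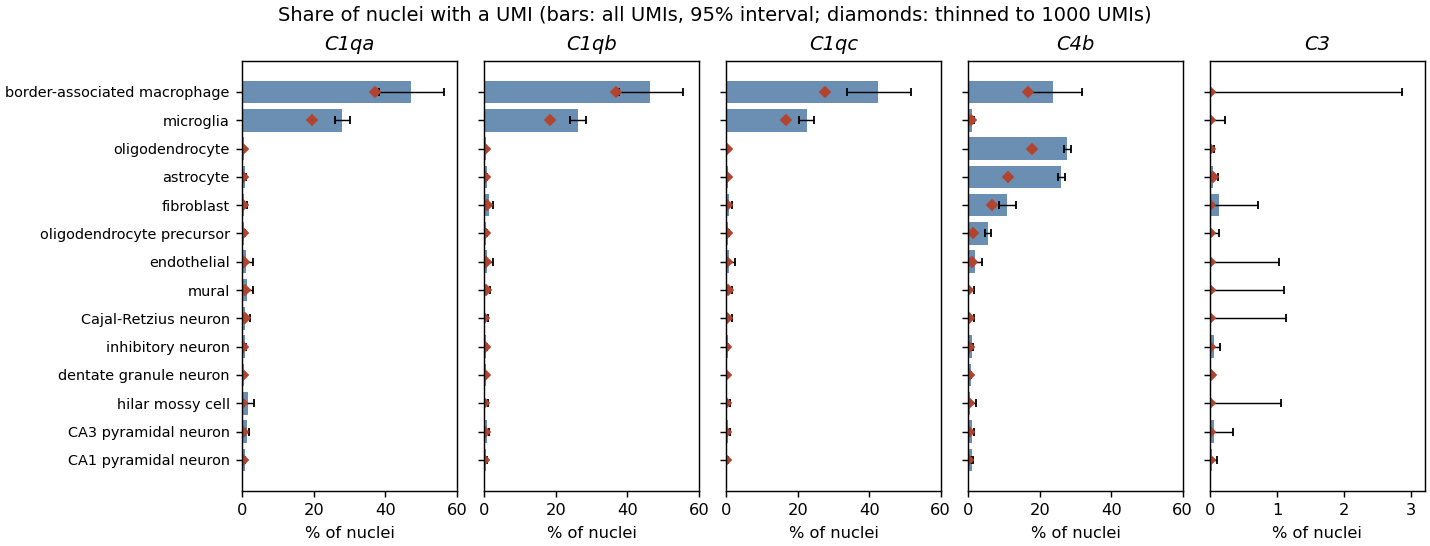
Share of nuclei with a UMI (%) of each member in each of the 14 classes, pooled over libraries; bars use all UMIs with 95% intervals, and diamonds are nuclei thinned to 1000 UMIs. The axis of C3 is enlarged. C1qa reaches 47.2% of macrophage-like and 28.0% of microglia-like nuclei, and C4b 27.7% of oligodendrocyte-like and 26.0% of astrocyte-like nuclei.

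C4b had another distribution. The oligodendrocyte-like class, the myelinating cells, held 53.6% of its UMIs (4497 UMIs), with detection in 27.7% of 10030 nuclei and a level of 169 ± 131 CPM (SD, n = 13). Astrocyte-like nuclei held 32.9% (2755 UMIs), with detection in 26.0% of 7460 nuclei and 135 ± 71.7 CPM (SD, n = 13). Thinned to 1000 UMIs, the shares of nuclei with C4b were 17.9% and 11.1%, against 0.104% of granule-like nuclei. These means pool groups that differed, and the order of the 2 classes within each mouse is given with age. Of the smaller classes, macrophage-like nuclei had 40 C4b UMIs (23.6% of nuclei, pooled level 190 CPM) and fibroblast-like nuclei 104 UMIs (10.8%, 45.0 ± 26.2 CPM, SD, n = 9). Fibroblast-like nuclei also held 2030 to 5973 CPM of the astrocyte markers, against 12311 to 16320 in astrocyte-like nuclei. The part of this in their C4b was not tested. Oligodendrocyte precursor-like nuclei, the dividing cells of that lineage, had 173 UMIs (5.50%, 15.6 ± 10.8 CPM, SD, n = 13). Microglia-like nuclei, where C1q was high, had 17 C4b UMIs (1.03% of nuclei).

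C3 was barely detected. Of its UMIs, 10 (40%) were in unnamed nuclei, and 3 of these 10 were in a cluster of 34 nuclei with T cell markers (82.9 CPM), all in 1 nucleus of an old AL mouse. The microglia-like, macrophage-like, endothelial-like, mural-like, precursor-like, mossy cell-like and Cajal-Retzius-like classes had no C3 UMI. For the 1647 microglia-like nuclei, 0 nuclei with a UMI allows a share of up to 0.182%, and for the 2834 precursor-like nuclei up to 0.106%. These limits are for nuclei with a UMI, not for nuclei that express the gene. Astrocyte-like nuclei had 3 UMIs in 7460 nuclei, 0 in both AL groups, 2 in acute and 1 in long-term restriction. Oligodendrocyte-like nuclei had 1 UMI. C3 passed the filter on low counts in no class, so that it was not tested, and at this depth no difference in it was detectable.

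With age, C4b was higher in both major glial classes. In oligodendrocyte-like nuclei the 3 young mice had 22.6, 19.8 and 16.3 CPM (2, 18 and 17 UMIs), and the 3 old AL mice 124, 234 and 424 CPM. The acutely restricted mice had 288, 356 and 241 CPM. The long-term restricted mice had 64.0, 127, 140 and 144 CPM. Every one of the 10 old mice was above every young mouse. The share of all genes that separated the ages in this way was not counted, here or in astrocyte-like nuclei. By edgeR's quasi-likelihood test C4b rose by 3.91 ± 0.53 on the log2 scale from young to old AL (SE, 3 against 3 mice, adjusted p = 0.0025 over 11330 genes). In that comparison 713 genes (6.29%) were called at an adjusted p under 0.05.

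In astrocyte-like nuclei the young mice had 45.1, 41.3 and 42.1 CPM of C4b, and the old AL mice 93.9, 192 and 257 CPM. The acutely restricted mice had 203, 193 and 209 CPM. The long-term restricted mice had 102, 152, 96.7 and 125 CPM. Young mice were again below every old mouse, and they lay close together while the old AL mice were spread. C4b rose by 1.97 ± 0.27 on the log2 scale with age (SE, edgeR, adjusted p = 0.0043), in a class where 40 of 11458 genes (0.349%) were called.

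**Figure D2:**
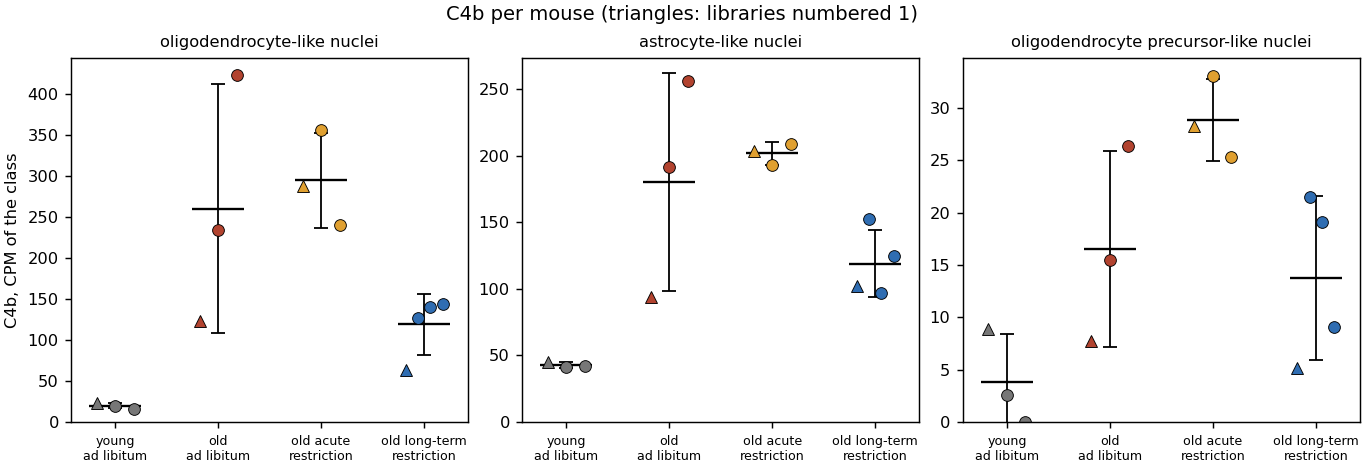
C4b level (CPM) in each mouse by group, in oligodendrocyte-, astrocyte- and precursor-like nuclei; points are mice (triangles are libraries numbered 1), and lines are group means with SD. In oligodendrocyte-like nuclei the young mice lie at 16.3 to 22.6 CPM and the old AL mice at 124 to 424 CPM.

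C4b counts of single nuclei were also higher with age. Nuclei were pooled over the mice of each group, and old AL replicate 1 gave 108 of the 2785 old AL oligodendrocyte-like nuclei. A count of 3 or more C4b UMIs was found in 0 of 1409 young oligodendrocyte-like nuclei and in 7.90% of 2785 old AL nuclei, with a highest count of 2 against 10. In astrocyte-like nuclei the shares were 0.119% and 4.54%. At 1000 UMIs per nucleus, the mean share of oligodendrocyte-like nuclei with C4b was 1.99% in young and 21.2% in old AL mice, and that of astrocyte-like nuclei 3.84% and 15.9%. Thinning left out 218 young and 36 old AL oligodendrocyte-like nuclei. Before thinning, median UMIs per oligodendrocyte-like nucleus were 1181 to 1661 in young and 1988 to 3144 in old AL mice. With that median as a covariate the change in oligodendrocyte-like nuclei was 3.82 (edgeR, adjusted p = 0.432), and without young replicate 2 it was 4.06 (adjusted p = 0.0635).

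**Figure D3:**
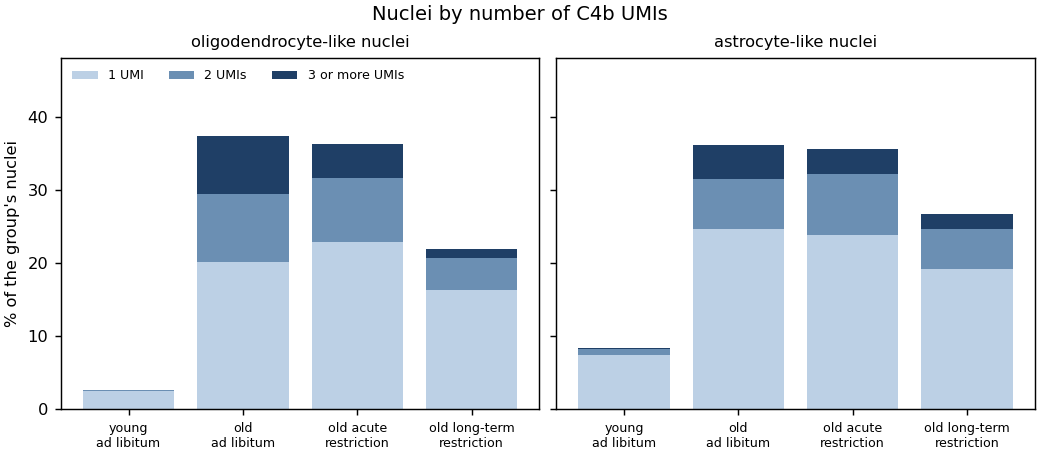
Share of each group's nuclei (%) with 1, 2, or 3 or more C4b UMIs, stacked, for oligodendrocyte- and astrocyte-like nuclei, not thinned. Nuclei with 3 or more UMIs make up 7.90% of old AL and 1.17% of long-term restricted oligodendrocyte-like nuclei. Nuclei are pooled over the mice of a group, and old AL replicate 1 gives 108 of the 2785 old AL oligodendrocyte-like nuclei. Between mice, the C4b difference of these groups was not called in the main fit.

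The 2 classes differed in the size of the rise. In a fit of both classes with mouse as block, the log2 change with age was 1.65 ± 0.33 smaller in astrocyte-like than in oligodendrocyte-like nuclei (SE, edgeR, adjusted p = 0.0078), a test that called 36 of 12592 genes (0.286%). Of the paired values, astrocyte-like nuclei had the higher C4b level in 3 of 3 young mice, and oligodendrocyte-like nuclei in 3 of 3 old AL, 3 of 3 acutely restricted and 2 of 4 long-term restricted mice. It was the 1 call of 60 tests of a member's change between 2 classes, 11 of them at an unadjusted p under 0.05. Under restriction, the share of all genes called in such tests was 0.0874% for astrocyte- minus oligodendrocyte-like nuclei (long-term), and for precursor- minus oligodendrocyte-like nuclei 0.36% (long-term) and 1.18% (acute). The call of the difference was lost without young replicate 2 (adjusted p = 0.0755) and without young replicate 3 (adjusted p = 0.188).

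C4b with age was tested in 3 other classes. Precursor-like nuclei of young mice had 8.87, 2.58 and 0 CPM, and those of old AL mice 7.70, 15.4 and 26.4 CPM, values that overlap. The difference was 2.19 ± 0.70 on the log2 scale (SE, edgeR, adjusted p = 0.094, 2.01% of genes called). With 1 mouse left out it was 1.60 to 3.79, called only without young replicate 1 (adjusted p = 0.025). It was also called with no filter on low counts (2.29, adjusted p = 0.0064) and with a term for the libraries numbered 1 (2.14, adjusted p = 0.029). The shares of all genes called in these alternative fits are not given here. In dentate granule neuron-like nuclei C4b rose by 2.36 ± 0.57 (SE, edgeR, adjusted p = 0.0434, 3.24% of genes called), from 5, 5 and 7 UMIs per young mouse to 5, 36 and 41 per old AL mouse. Leaving out 1 mouse at a time ended this call in 6 of 13 fits (adjusted p = 0.034 to 0.169 over the 13). With C4a counts added the granule-like change was 0.92 (adjusted p = 0.177). Per 1000 UMIs of oligodendrocyte markers, C4b in granule-like nuclei was 0.938 in young and 4.02 in old AL mice, and in oligodendrocyte-like nuclei 0.927 and 15.0. In old AL mice it was 9.48 in CA1 pyramidal, 20.7 in CA3 pyramidal and 24.9 in inhibitory neuron-like nuclei, from 19, 5 and 36 C4b UMIs. Granule-like nuclei of these mice held 325 to 373 CPM of the markers, and inhibitory neuron-like nuclei 83.0 to 135. The part of free RNA in the granule-like rise was not tested. Inhibitory neuron-like nuclei had 0 C4b UMIs in each of the 3 young mice and 8, 11 and 17 in the old AL mice (edgeR, adjusted p = 0.119, 0.0583% of genes called). In the main fits, 11 tests of a member in a class gave 3 calls with age, all of C4b and all upward. They were in oligodendrocyte-, astrocyte- and granule-like nuclei. Of the 11 tests, 6 had an unadjusted p under 0.05 (edgeR). The C1q genes were also tested in granule-like nuclei, from 20 or fewer UMIs per young or old AL mouse, and not called. Their mean log2 CPM there in young and old AL mice was -0.10 and -1.69 for C1qa, -0.40 and -1.31 for C1qb, and -1.02 and -1.57 for C1qc. C4a, the neighbour, had 0 UMIs in young and 11 in old AL oligodendrocyte-like nuclei, and 5 and 4 in astrocyte-like nuclei. Its counts in granule-like nuclei, where adding them lowered the change to 0.92, are not given here.

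Over whole libraries C4b was 3.34 ± 0.60 higher on the log2 scale in old AL than in young mice (SE, edgeR, adjusted p = 0.1345). None of 20089 genes was called there by edgeR (0.0%), with 4182 at an unadjusted p under 0.05. DESeq2 called 1 of the members, and its share of all genes called is not given here. In whole libraries fewer nuclei of a class and less RNA per nucleus cannot be told apart. Without the 4 libraries numbered 1, only young replicates 2 and 3 and old AL replicates 2 and 4 were left to compare. The old AL library left out had the lowest C4b level of its group in oligodendrocyte-, astrocyte- and precursor-like nuclei. The change of C4b with age was then 4.19 in oligodendrocyte-like nuclei (edgeR, adjusted p = 9.5e-05) and 2.38 in astrocyte-like nuclei (8.6e-08). The whole libraries then gave 3.39 (0.0055), where 9.19% of genes were called. Precursor-like nuclei gave 4.06 (0.0012), from 1 and 0 UMIs in the young mice, and granule-like nuclei 2.53 (0.0055). The shares of all genes called in these fits were 7.78% in oligodendrocyte-like, 4.92% in astrocyte-like, 5.71% in precursor-like and 17.0% in granule-like nuclei. In inhibitory neuron-like nuclei C4b was then called (adjusted p = 0.018, 6.02% of genes called), still with 0 UMIs in the young mice. C4b was lower in the libraries numbered 1 over whole libraries, by a term of -1.24 ± 0.26 (SE, edgeR, adjusted p = 0.0066, 22.7% of genes called), and in granule-like nuclei, by -1.13 ± 0.30 (adjusted p = 0.0134, 22.8% called). These 4 libraries held 47, 108, 163 and 186 oligodendrocyte-like nuclei, the class with most C4b UMIs, against 624 to 1654 in the other 9, and the part of this in the whole-library term was not tested. In oligodendrocyte-like nuclei the term was -0.72 ± 0.28 (adjusted p = 0.31) and in astrocyte-like nuclei -0.35 ± 0.15 (adjusted p = 0.17).

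Under restriction, with no further term in the fit, no member was called in any class. In the smaller sets of C4b counts 0.0438% of genes were called in precursor-like nuclei (long-term), and 0.018% in granule-like and 0.00728% in inhibitory neuron-like nuclei (acute). Both restriction groups were compared with the same old AL mice, which also serve in the comparison with young mice. Long-term restricted mice had 119 ± 37.4 CPM of C4b in oligodendrocyte-like nuclei (SD, n = 4) against 260 ± 152 (SD, n = 3) in old AL mice. The ranges overlap through old AL replicate 1, and the difference was -1.11 ± 0.33 on the log2 scale (SE, edgeR, adjusted p = 0.30, 0.247% of genes called). Without old AL replicate 1 it was -1.35 (adjusted p = 0.042), and without the libraries numbered 1 it was -1.26 (adjusted p = 0.052). With the replicate number as a block it was -0.99 (edgeR, adjusted p = 0.0049), in a fit that called more of all genes. In astrocyte-like nuclei the main fit gave -0.45 ± 0.23 (adjusted p = 0.97, 0.0% called). Acute restriction gave 0.08 ± 0.34 in oligodendrocyte-like nuclei (SE, edgeR, adjusted p = 0.99, 1.7% called) and 0.28 ± 0.24 in astrocyte-like nuclei (adjusted p = 0.97, 0.0524% called).

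The 2 lengths of restriction were also compared directly. Every long-term restricted mouse had less C4b than every acutely restricted mouse in oligodendrocyte-, astrocyte- and precursor-like nuclei. The share of all genes that separated these mice in this way was not counted. The 3 classes come from the same mice and are not independent. Over the 13 mice, C4b in oligodendrocyte-like nuclei correlated at 0.968 with that in astrocyte-like and at 0.872 with that in precursor-like nuclei. The C4b differences were -1.19 ± 0.33, -0.73 ± 0.22 and -1.08 ± 0.42 on the log2 scale (SE, edgeR, n = 4 against 3). With no further term in the fit, none passed the adjustment over all genes (adjusted p = 0.44, 1.0 and 0.92, unadjusted p = 0.0050, 0.0049 and 0.016). In these comparisons 0.106%, 0.0% and 0.0% of genes were called. Without old AL replicate 4, whose group enters only the estimate of the spread, the oligodendrocyte-like difference had an adjusted p of 0.031. With the replicate number as a block that difference was -1.42 (edgeR, adjusted p = 3.9e-05), in a fit that called more of all genes. Of single nuclei, pooled over the mice of each group, 3 or more C4b UMIs were found in 4.59% of acutely and 1.17% of long-term restricted oligodendrocyte-like nuclei.

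**Figure D4:**
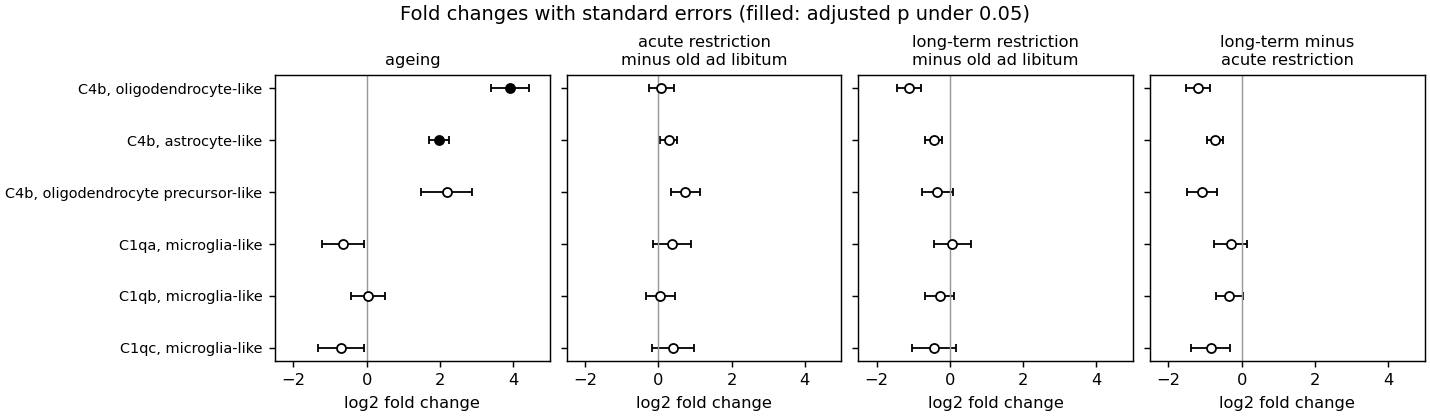
Log2 fold changes with SE in the 4 comparisons, for C4b in 3 glial classes and the C1q genes in microglia-like nuclei; filled points have an adjusted p under 0.05. With age C4b stands at 3.91 in oligodendrocyte-like, 2.19 in precursor-like and 1.97 in astrocyte-like nuclei, and the precursor-like point is open.

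With no further term in the fit, C1q was not called in microglia-like nuclei in any of the 4 comparisons. C1qa was 821, 241 and 284 CPM in young, 378, 157 and 186 in old AL, 508, 219 and 202 in acutely and 373, 202, 209 and 171 in long-term restricted mice. C1qb was 626, 161 and 188 CPM in young, 344, 143 and 295 in old AL, 409, 195 and 195 in acutely and 187, 195, 209 and 186 in long-term restricted mice. C1qc was 860, 181 and 236 CPM in young, 229, 150 and 194 in old AL, 459, 171 and 171 in acutely and 245, 120, 69.7 and 136 in long-term restricted mice. The first value of each group is its library numbered 1, and the groups overlap for all 3 genes. With age the log2 differences were -0.65 ± 0.57 for C1qa, 0.04 ± 0.46 for C1qb and -0.71 ± 0.63 for C1qc (SE, edgeR, adjusted p = 0.74, 1.0 and 0.74, 2.45% of genes called). With 1 mouse left out C1qa was -0.98 to -0.32, C1qb -0.26 to 0.46 and C1qc -1.02 to -0.27. In acute restriction 0.0258% of genes were called, in long-term restriction 0.0773% and between the 2 restrictions 0.0%.

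**Figure D5:**
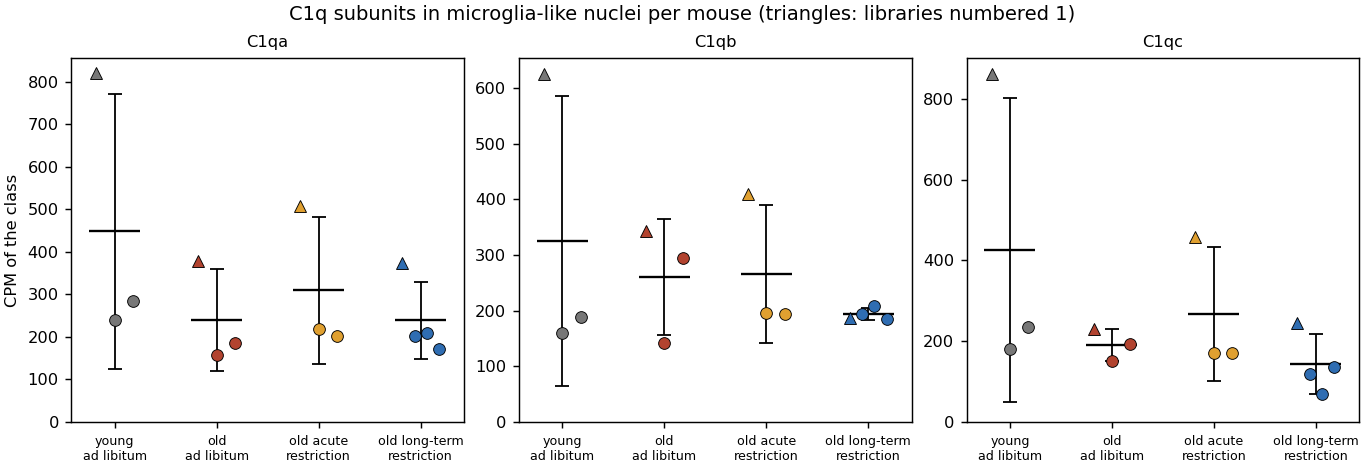
Level of C1qa, C1qb and C1qc (CPM) in microglia-like nuclei of each mouse, by group, with group means and SD; triangles are libraries numbered 1. The libraries numbered 1 hold the highest C1qa level of each group, from 373 to 821 CPM.

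The libraries numbered 1 had higher C1q in this class. A term for that number gave 1.20 ± 0.16 for C1qa (SE, edgeR, adjusted p = 6.8e-06), 0.82 ± 0.20 for C1qb (0.0348) and 1.25 ± 0.19 for C1qc (1.9e-04) on the log2 scale, where 30 of 3880 genes (0.773%) were called. Over whole libraries the term was -0.07 ± 0.26 for C1qa (adjusted p = 0.87). The young library of that number rested on 20 microglia-like nuclei, with 21, 16 and 22 UMIs of C1qa, C1qb and C1qc. With the term in the fit C1qa was -0.78 with age (edgeR, adjusted p = 0.0258, where 193 of 3880 genes were called), and without those libraries -0.69 (adjusted p = 0.184). C1qb was -0.06 with the term (adjusted p = 0.97) and 0.16 without the libraries (0.92), and C1qc -0.79 (0.077) and -0.39 (0.67). The libraries numbered 1 also had the lowest share of microglia-like nuclei in every group: 0.390% in young, 1.38% in old AL, 1.76% in acutely and 1.17% in long-term restricted mice, against 1.46% to 3.58% in the others. The part of this in the C1q levels was not tested. The difference in this share between old AL and young mice was 0.58 in log2 odds (p = 0.8, two-sided exact permutation test), a test which with 3 against 3 mice cannot go below 0.1.

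Splitting the microglia-like nuclei further gave a subcluster of 1032 nuclei, 279 of them young and 91 old AL, and one of 615 nuclei, 10 young and 205 old AL. Their pooled levels, given with no test, were 271 and 205 CPM for C1qa, 220.2 and 207.03 for C1qb, and 219 and 150 for C1qc.

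Of 55 other complement genes, 34 were tested in at least 1 class and 6 were called in at least 1 comparison, with 8 calls in 624 tests of a gene in a class and comparison. Each call is given with the share of all genes called in its comparison. Among receptors, Cr2, which binds C3 fragments, fell with age in oligodendrocyte-like nuclei by 2.25 ± 0.40 on the log2 scale (SE, edgeR, adjusted p = 0.0013, 6.29% of genes called), from 37.3 ± 9.8 to 6.16 ± 3.97 CPM (SD, n = 3 each). Megf10, an engulfment receptor that binds C1q, rose with age in precursor-like nuclei by 0.90 ± 0.18 (SE, edgeR, adjusted p = 0.0061, 2.01% called). Among membrane regulators, Csmd2 fell in oligodendrocyte-like nuclei under both restrictions, by 1.13 ± 0.18 in acute (SE, edgeR, adjusted p = 3.8e-04, 1.7% called) and by 1.04 ± 0.16 in long-term restriction (adjusted p = 0.0020, 0.247% called). Its levels were 235 ± 42.4 CPM in old AL, 102 ± 17.2 in acutely and 107 ± 20.7 in long-term restricted mice (SD). Csmd1 rose with age in granule-like nuclei by 0.55 ± 0.13 (edgeR, adjusted p = 0.041) and Sez6l by 0.58 ± 0.15 (adjusted p = 0.048), where 3.24% of genes were called. In Cajal-Retzius-like nuclei, with 2 mice against 2 and 3.46% of genes called, Csmd1 rose by 1.36 ± 0.38 (adjusted p = 0.0187) and Csmd3 by 2.27 ± 0.68 (adjusted p = 0.034). Leaving out 1 mouse at a time kept Cr2 and Csmd2 called in all 13 fits. It ended the call of Csmd1 in granule-like nuclei in 9, of Sez6l in 10 and of Megf10 in 2 of 13 fits. The call of Csmd3 ended in 1 of 3 fits. These 3 fits left out restricted mice only, since each compared group needed 2 mice. They cannot show how the Cajal-Retzius-like calls depend on a young or old AL mouse. Without the libraries numbered 1, Csmd1 in granule-like nuclei was 0.60 (adjusted p = 0.059). In oligodendrocyte-like nuclei 17 of the 55 genes were tested with age, 0 rose and 1 fell, beside 6.29% of all genes called, so that the count of calls is near that share, and their median log2 change was 0.23 against -0.02 for all genes. In microglia-like nuclei 8 were tested and none was called, with a median of -0.10 against 0.00. Itgam, a chain of CR3, had mean levels of 542 CPM in young, 472 in old AL, 467 in acutely and 537 in long-term restricted mice there. The receptors of the C3 and C5 fragments were sparse in this class, with 10, 24, 34 and 25 UMIs of C3ar1 and 6, 6, 18 and 14 of C5ar1 in the same order of groups, and were not tested.

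The genes most like each member were ranked by Pearson correlation, described with no test. Over the 14 classes, C1qb and C1qc were most like each other (r = 0.996), followed by Fcrls (0.990 and 0.995), and C1qa was most like Runx1 (0.984) and Fcer1g (0.983). C4b was most like St3gal4 (0.911), Mmut (0.910) and Cct6b (0.905). Over the 13 mice in microglia-like nuclei, C1qa was most like Cst3 (0.918) and Rubcn (0.907), C1qb like Ctsd (0.883) and C1qc like Rubcn (0.937). In oligodendrocyte-like nuclei C4b was most like Dgki (0.912) and Pik3r3 (0.909), and it correlated at 0.968 with C4b in astrocyte-like nuclei of the same mice. Over classes, C1q was high in the microglia-like and macrophage-like points only, and its r values rest largely on them. The macrophage-like point is the mean of acute replicate 3 (31 nuclei) and long-term replicate 1 (23 nuclei), the only libraries with at least 20 such nuclei. All points, over classes and over mice, share libraries and their depths. The points over mice also mix the 4 groups, and C4b differed with age.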

How the data were processed

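The authors deposited raw UMI counts per gene and droplet barcode for 13 libraries, made with Cell Ranger 4.0.0 on mm10, per the submitters' processing notes. Barcodes under 500 genes or over 5% mitochondrial UMIs were dropped (105427 of 105759 stayed), 7386 predicted doublets (7.01%) were removed, and nuclei were clustered with scanpy 1.11.5 (Leiden, resolution 1) without complement genes. Clusters were named from marker lists, and those with over 25% doublets stayed unnamed. Counts were summed per mouse and class with at least 20 nuclei, and tested with edgeR 4.0.16 (quasi-likelihood, TMM, filterByExpr, Benjamini-Hochberg over all genes of a class, called at an adjusted p under 0.05). The SE of an edgeR log2 change was derived from its test, as the absolute change divided by the square root of the F statistic. DESeq2 1.42.0 (R 4.3.3) was an alternative. Fits with 1 mouse left out took the 13 mice in turn, so that some left out a mouse of neither compared group. Such a mouse enters a comparison only through shared estimates such as the spread. The scripts were tested on simulated data. Named genes were the members, every gene of the complement list called in any comparison, the receptors C3ar1, C5ar1 and Itgam, the paralog C4a, and the 5 genes most correlated with each member. The members and lists were chosen with earlier results of these data known. The doublet limit for naming, the split of the microglia-like class and the fits without libraries numbered 1 were chosen after seeing the data. Libraries numbered 1 went together across groups, while the other numbers did not in every pair. The main fits hold no term for the number. Same-numbered whole libraries correlated over 0.1 in 6 of 6 pairs for number 1, 4 of 6 for number 2, 2 of 3 for number 3 and 0 of 1 for number 4. UMI totals per library limit the precision, and intervals cover counting error only.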

Additional observations from a re-analysis of the deposited data

Results flagged for a closer look

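The change of C4b with age differed between classes: it was -1.65 on the log2 scale in astrocyte-like minus oligodendrocyte-like nuclei (edgeR with mouse as block, adjusted p = 0.0078). Clusters that carried no class name, and so enter the whole-library comparisons but none between classes or within one, also held complement UMIs above the level in granule-like nuclei. Cluster 42, with 9 nuclei and the astrocyte list most raised, had 4 UMIs of C1qa (120 CPM). Cluster 40, with 20 nuclei and the microglia markers most raised, had 8 UMIs each of C1qb (151 CPM) and C1qc (151 CPM). Cluster 24, with 68 nuclei and the ependymal list most raised, had 40 UMIs of C4b (123 CPM). Clusters with many predicted doublets were among those left unnamed. In a clustering at resolution 0.5, the cluster with the ependymal list most raised had 91.3% predicted doublets. The part of remaining doublets in these counts was not tested. The causes of these levels were not tested.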

How the results depend on the processing

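C4b with age in astrocyte-like nuclei kept its call and direction in every alternative run, from 1.76 to 2.34 when 1 mouse was left out. The count of members called with age in classes, 3, became 5 with no filter on low counts, 6 with a term for number 1, 1 with median UMIs per nucleus as covariate, 5 without libraries numbered 1, and 1 to 4 with 1 mouse left out (1 without young replicate 2). The calls over all genes moved too. With the number 1 term they went from 540 to 3510 in granule-like and from 8 to 663 in inhibitory neuron-like nuclei. In astrocyte-like nuclei they went from 40 to 341 and in microglia-like nuclei from 95 to 193. With the covariate they went from 713 to 4 in oligodendrocyte-like nuclei. For the fits with no filter on low counts the calls over all genes are not given here. Over whole libraries the count of 0 became 1 with DESeq2, the number 1 term, or without libraries numbered 1. Without those libraries 9.19% of all genes were called there, and the shares in the other fits are not given here. C4b in granule-like nuclei was 2.87 (adjusted p = 0.428) with the covariate, 2.45 (0.0715) with the length trend removed, 0.92 (0.177) with C4a added, and 1.90 to 2.67 with 1 mouse left out. In oligodendrocyte-like nuclei it was 3.82 (0.432) with the covariate and 3.40 to 4.16 with 1 mouse left out. With 1 mouse left out the counts were 0 to 1 in long-term restriction, 0 to 1 between the restrictions and 0 to 1 for the difference between classes, whose value was -1.83 to -1.61. The microglia-like share with age was -0.21 to 1.15, negative without young replicate 1. Thinning to 1000 UMIs gave 19.5%, 18.5% and 16.6% for the C1q genes and 17.9% and 11.1% for C4b. The causes were not tested.

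With the replicate number as a replicate block, C1qc with age in microglia-like nuclei was called (-1.02, adjusted p = 0.030), 1 member was called over whole libraries with age, 1 in long-term restriction (C4b in oligodendrocyte-like nuclei, -0.99, adjusted p = 0.0049) and 1 between the restrictions (-1.42, 3.9e-05). Under the block the genes called were 211 in microglia-like nuclei with age (95 without it), and in oligodendrocyte-like nuclei 138 in long-term restriction (28) and 35 between the restrictions (12). Whole libraries numbered 1 correlated over 0.1 in 6 of 6 pairs, and the other numbers did not in every pair.

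Small differences changed sign. C1qb with age was -0.058 with DESeq2, -0.20 with the block, -0.063 with the number 1 term, -0.50 with the covariate and -0.26 to 0.46 with 1 mouse left out. C1qa in long-term restriction was -0.0031 with DESeq2, -0.35 with at least 1000 genes per barcode and -0.25 to 0.43 with 1 mouse left out. In acute restriction, astrocyte-like C4b was -0.066 with the covariate, -0.089 without libraries numbered 1 and -0.090 to 0.51 with 1 mouse left out. Oligodendrocyte-like C4b was -0.12 with at least 1000 genes, -0.18 without libraries numbered 1 and -0.16 to 0.59 with 1 mouse left out, and whole-library C4b was -0.015 with the number 1 term and -0.57 to 0.52. C1qb was -0.017 with the length trend removed, -0.047 without libraries numbered 1 and -0.37 to 0.26 with 1 mouse left out, C1qa -0.060 to 0.72 and C1qc -0.092 to 0.65. Precursor-like C4b in long-term restriction was -0.61 to 0.16. Between the restrictions C1qa was -0.56 to 0.12 with 1 mouse left out and C1qb 0.023 without libraries numbered 1. Depth limits C3, which passed no filter.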
